A study of Mus musculus with 4 samples.

Results

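The angiopoietin and Tie receptor genes were followed in RNA sequencing data of whole mouse uteri. The members were taken by symbol and are the 3 ligand genes Angpt1, Angpt2 and Angpt4 and the 2 receptor genes Tek, which encodes Tie2, and Tie1. All 5 were among the 55421 genes in the count files, and all 5 reached 1 CPM in 2 or more libraries, as did 14492 genes in all, where CPM is a gene's count scaled to a library total of 1000000. Uteri came from 2 WT mice (C57BL/6J) and 2 Qa-2- mice (B6.K1, labelled B6.Cg-H2b3/FlaCmwJ) that were pregnant at E18.5 after matings within the strain, and each mouse gave 1 library. Qa-2- mice carry a natural null allele of the genes for Qa-2, a non-classical MHC class I molecule, in a congenic strain obtained from another supplier than the WT mice. Strain background, supplier and loss of Qa-2 therefore cannot be told apart. The question of the comparison is how the uterus of mice without Qa-2 differs in vessel genes late in pregnancy.

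Angiopoietins are secreted proteins that bind the receptor tyrosine kinase Tie2 on endothelial cells. Angpt1, made mainly by cells around the vessel, activates Tie2 and keeps vessels quiet and tight, whereas Angpt2, made and stored by endothelial cells, acts as a weaker or opposing ligand and is abundant where vessels are being remodelled. Angpt4 is a further Tie2 ligand, and Tie1 is an endothelial partner of Tie2 without a classical angiopoietin ligand of its own. The uterus renews and enlarges its vessels in each pregnancy, and the ratio of Angpt2 to Angpt1 is a usual measure of this system.

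Library totals lay between 33286390 and 41041299 counted read pairs, and both WT libraries were deeper. H2-Q6 and H2-Q7, which encode Qa-2, had 1192 to 6318 counts in WT libraries and 2 to 4 counts in Qa-2- libraries, as the labels state. Smooth muscle genes were abundant in all libraries, with summed CPM from 12900 to 41302 for Acta2, Myh11, Tagln, Cnn1, Actg2 and Des. Summed trophoblast and yolk sac markers were 5.09 and 54.4 CPM in WT and 412.6 and 22.95 CPM in Qa-2- libraries, so that the groups overlapped. Afp, a yolk sac gene, made up 379.5 CPM of the highest sum. WT replicate 2 alone held the placental genes Psg21, with 308 counts, and Prl3b1, with 155 counts. Tpbpa, also a placental gene, had 4 and 271 counts in WT and 115 and 5 counts in Qa-2- libraries. Nothing in the labels says more of the mice than that they are separate samples, and p-values measure the spread between these samples.

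Both receptor genes and the ligand genes Angpt2 and Angpt4 were higher in both WT uteri than in both Qa-2- uteri, while Angpt1 was not. The fitted fold of WT over Qa-2- was 2.97 for Angpt4, 2.84 for Angpt2, 2.05 for Tie1 and 1.82 for Tek. It was 0.858 for Angpt1. With edgeR's quasi-likelihood fit, 0 of the 5 members reached an adjusted p under 0.05, beside 0% of all genes. At an unadjusted p under 0.05, 4 members were higher in WT and 0 in Qa-2- uteri, against 8.09% and 7.09% of all genes tested. DESeq2's Wald test gave an adjusted p under 0.05 for Angpt2, Angpt4, Tek and Tie1, all higher in WT, against 2.79% of all genes called higher in WT and 2.04% called higher in Qa-2- uteri. Angpt2, Tek and Tie1 were named by the study as higher in WT on the basis of these libraries, so their direction is not independent evidence. Angpt4 and Angpt1 are not among the genes the study showed, but were taken up here with earlier results of these data known.

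**Figure D1:**
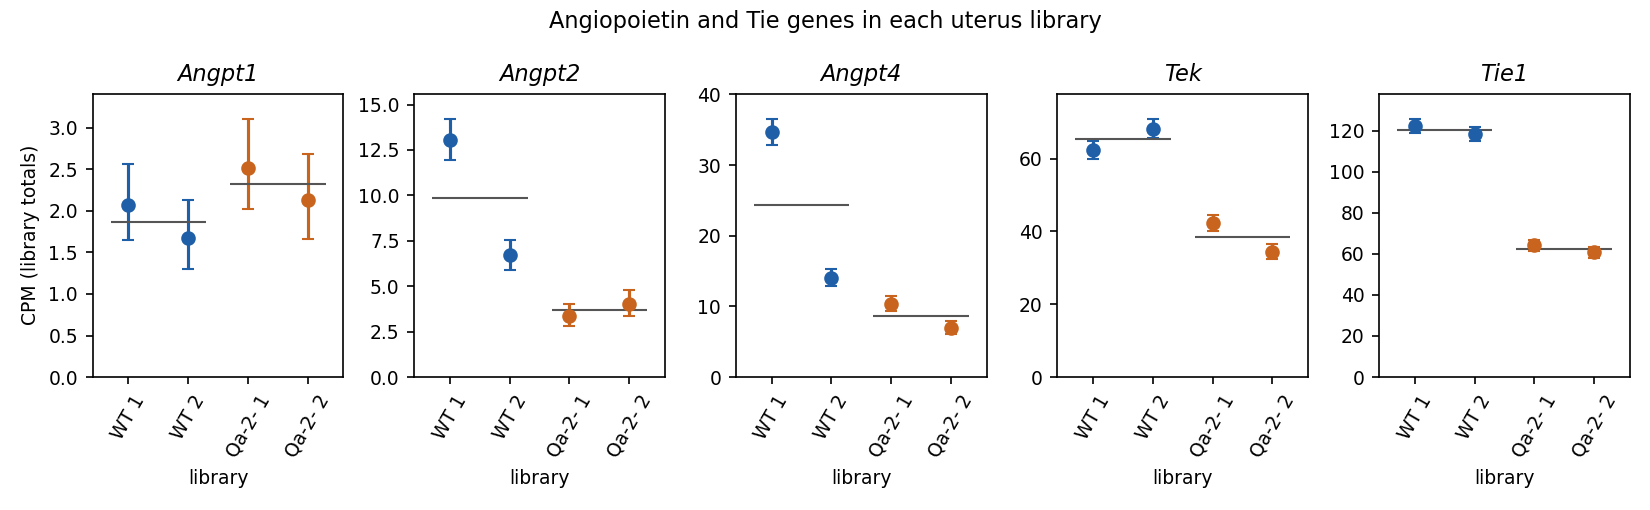
CPM (y axis, on library totals, each panel from 0) of each member in the 4 libraries (x axis; blue WT, orange Qa-2-). Points are libraries, error bars are exact 95% Poisson intervals that cover counting error only, and grey lines are group means; WT replicate 1 stands above WT replicate 2 for Angpt2 and Angpt4, while the WT libraries lie close together for Tek and Tie1.

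Among the receptors, Tie1 had the steadiest values. Tie1 (ENSMUSG00000033191; GRCm38 chromosome 4, 118471191 to 118490061, minus strand) had 122.1 and 118.4 CPM in WT replicates 1 and 2 and 64.2 and 60.8 CPM in Qa-2- replicates 1 and 2. Each WT library was at least 1.84 times each Qa-2- library, and the libraries of a group differed by at most 1.06 times. Mean Tie1 was 120.2 ± 2.65 CPM (SD, n = 2) for WT, against 62.5 ± 2.44 CPM (SD, n = 2) without Qa-2. The log2 fold change was 1.04 (standard error 0.15, 95% interval 0.65 to 1.43, edgeR's quasi-likelihood adjusted p = 0.246). It held the rank of 47 among all 14492 genes by p. DESeq2's Wald test gave it an adjusted p of 0.000196.

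Tek (ENSMUSG00000006386), which encodes the angiopoietin receptor itself, lies on the same chromosome from 94739289 to 94874976 on the plus strand. It had 62.4 and 68.2 CPM in WT and 42.3 and 34.4 CPM in Qa-2- uteri. The groups did not overlap, and the lowest WT library was 1.48 times the highest Qa-2- library. The log2 fold change was 0.86 (standard error 0.18, 95% interval 0.40 to 1.32, edgeR's quasi-likelihood adjusted p = 0.246). The ratio of Tek to Tie1 per length was 0.533 and 0.601 in WT and 0.687 and 0.591 in Qa-2- libraries, so that the groups overlapped (log2 difference -0.17, exact permutation p = 0.667).

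The bases before the starts of Tek and Angpt4 are shown because only their windows could be printed. No window was available for Angpt1 or Angpt2, and that of Tie1 overlaps an annotated exon. Tek is a receptor of endothelium and Angpt4 the most abundant ligand, and both were higher in WT, as were Tie1 and Angpt2. The 250 bases before the RefSeq start (GRCm38.p6, plus strand for both, 5′ to 3′) are chr4:94739039-94739288 for Tek and chr2:151910957-151911206 for Angpt4, and no exon of the annotation lies in either window. Capitals mark GGAA on either strand, the core of sites for ETS factors, which act in endothelial genes, and TATAAA, the TATA box.
Tek: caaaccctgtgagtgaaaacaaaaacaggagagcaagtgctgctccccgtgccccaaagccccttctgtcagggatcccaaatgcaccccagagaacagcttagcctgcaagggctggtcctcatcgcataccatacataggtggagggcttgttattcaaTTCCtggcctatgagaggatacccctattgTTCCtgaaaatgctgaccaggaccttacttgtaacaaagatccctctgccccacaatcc
Angpt4: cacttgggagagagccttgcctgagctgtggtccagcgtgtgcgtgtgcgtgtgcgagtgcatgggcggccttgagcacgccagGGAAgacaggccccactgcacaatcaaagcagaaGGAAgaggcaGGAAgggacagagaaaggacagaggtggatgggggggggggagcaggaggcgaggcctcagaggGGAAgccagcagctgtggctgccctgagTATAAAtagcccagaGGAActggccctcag

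The Tek window held GGAA 2 times, both on the opposite strand, and no TATAAA. The Angpt4 window held GGAA 5 times and TATAAA once, from 30 to 25 bases before the start. GGAA was present in 93.4% and TATAAA in 12.4% of 32851 RefSeq windows of the same length, so that GGAA is present in nearly all of them. Neither window held, on either strand, the longer ETS motif GGAAGT, which contains GGAA and was in 19.7% of all windows, the FOXO motif GTAAACA, found in 3.17%, the GATA motif AGATAA, found in 9.99%, or the hypoxia response motif ACGTG, found in 16.6%. The window of Tie1, searched alike but not printed, held GGAAGT 1 time and GGAA 7 times.

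Among the ligands, Angpt4 was the most abundant and the most variable. Angpt4 (ENSMUSG00000027460; chromosome 2, 151911210 to 151945337, plus strand) had 1421 and 552 counts in WT and 362 and 233 counts in Qa-2- uteri, which is 34.6 and 14.0 CPM against 10.4 and 7.0 CPM. WT replicate 1 was 2.47 times WT replicate 2, while the lowest WT library was only 1.35 times the highest Qa-2- library. The log2 fold change was 1.57 (standard error 0.48, 95% interval 0.35 to 2.78, edgeR's quasi-likelihood adjusted p = 0.281). Without WT replicate 1 it was 0.77 (standard error 0.36), and without WT replicate 2 it was 2.07, so its size rests on WT replicate 1.

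Angpt2 (ENSMUSG00000031465; chromosome 8, 18690263 to 18741562, minus strand) had 535 and 264 counts in WT and 118 and 134 counts in Qa-2- uteri. These are 13.0 and 6.70 CPM in WT against 3.38 and 4.03 CPM. WT replicate 1 was again the highest library, at 1.95 times WT replicate 2, and the groups did not overlap. The log2 fold change was 1.51 (standard error 0.38, 95% interval 0.53 to 2.48, edgeR's quasi-likelihood adjusted p = 0.264). Without WT replicate 1 it was 0.94. Angpt2 lies inside Mcph1, a gene on the opposite strand with which it shares 0 exon bases. Mcph1 had 275 and 259 counts in WT and 317 and 260 counts in Qa-2- libraries, and the counting used strand.

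Angpt1 (ENSMUSG00000022309; chromosome 15, 42424723 to 42676977, minus strand) was the member with the lowest level. It had 85 and 66 counts in WT and 88 and 71 counts in Qa-2- uteri. On library totals these are 2.07 and 1.68 CPM in WT against 2.52 and 2.13 CPM, so that both Qa-2- libraries were slightly higher, as for 32% of all genes. With TMM-scaled library sizes the groups overlapped, at 2.12 and 1.75 CPM against 2.48 and 2.03 CPM. The log2 fold change was -0.22 (standard error 0.35, edgeR's quasi-likelihood adjusted p = 0.794). Its 95% interval, from -1.12 to 0.68, leaves room for a fold between 0.460 and 1.60. The exons of Angpt1 share 737 bases with Gm17473 on the opposite strand, which had 0 to 2 counts. The 4 other members were higher in both WT libraries with either library size, against 18.7% of all genes on library totals and 25.4% with TMM scaling.

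Levels of different genes were compared as CPM per kilobase of exon (RPKM). In WT uteri the order was Tie1 at 24.5 ± 0.539 RPKM (SD, n = 2), Tek at 13.9 ± 0.870, Angpt4 at 10.4 ± 6.24, Angpt2 at 2.67 ± 1.21 and Angpt1 at 0.360 ± 0.0538 RPKM. The Qa-2- uteri had the same order, with Tie1 at 12.7 ± 0.497 RPKM (SD, n = 2), Tek at 8.14 ± 1.18, Angpt4 at 3.72 ± 1.02, Angpt2 at 1.0 ± 0.124 and Angpt1 at 0.447 ± 0.0526 RPKM. Tek and Angpt4 could not be ordered in WT, because Angpt4 was above Tek in WT replicate 1 (14.8 against 13.2 RPKM) and below it in WT replicate 2 (6.00 against 14.5 RPKM). All other neighbours kept their order in each library. Tie1 stood above 86.9% and 87.3% of the genes tested in WT and above 75.9% and 73.4% in Qa-2- libraries. Angpt1 stood above 4.58% to 6.54% of them in the 4 libraries.

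**Figure D2:**
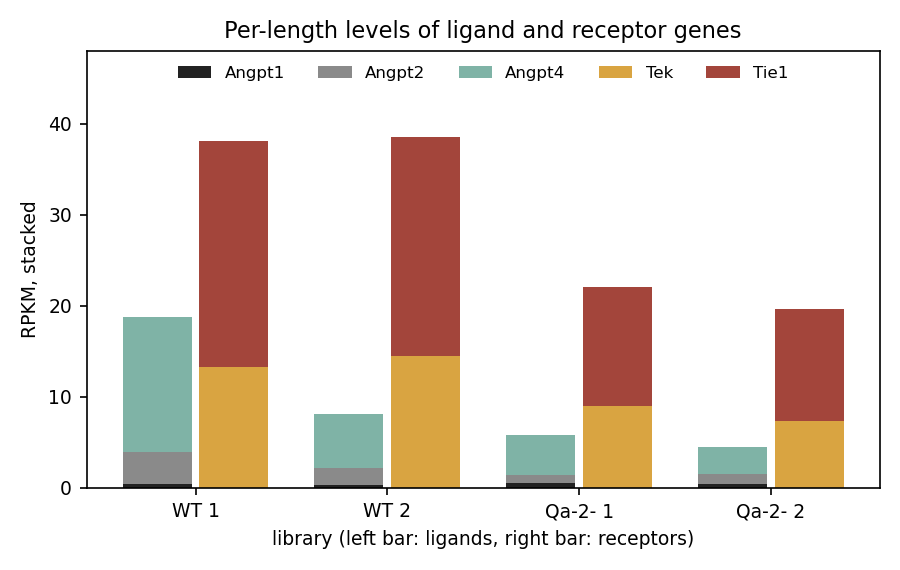
Stacked levels in RPKM (y axis, from 0) of the ligand genes (left bar) and the receptor genes (right bar) in each library (x axis). Angpt4 makes up most of every ligand bar, and the receptor bars of both WT libraries, at 38.1 and 38.5 RPKM, are above those of both Qa-2- libraries, at 22.0 and 19.7 RPKM.

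Of the summed ligand RPKM, Angpt4 took 79.0% and 73.7% in WT and 76.0% and 66.6% in Qa-2- libraries. Angpt2 took 18.8% and 22.3% in WT against 15.7% and 24.3%. For the shares of Angpt4 and of Angpt2 the groups overlapped. Angpt1 took 2.12% and 3.95% in WT and 8.29% and 9.11% in Qa-2- libraries. The summed ligand RPKM per Tek RPKM was 1.42 in WT replicate 1 and 0.562 in WT replicate 2, and 0.651 and 0.616 in Qa-2- libraries, so that WT replicate 1 stood apart.

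The ratio of Angpt2 to Angpt1, which needs no scaling between libraries, was higher in both WT uteri. Per length it was 8.88 and 5.64 in WT replicates 1 and 2 (exact Clopper-Pearson 95% intervals 7.05 to 11.3 and 4.29 to 7.51, counting error only). In Qa-2- replicates 1 and 2 it was 1.89 and 2.66 (intervals 1.42 to 2.52 and 1.98 to 3.6). No WT interval overlapped a Qa-2- interval. The mean log2 ratio was 2.82 ± 0.46 in WT (SD, n = 2) and 1.17 ± 0.35 in Qa-2- uteri (SD, n = 2), a difference of 1.66 or 3.15-fold. A two-sided exact permutation test gave p = 0.33 (Benjamini-Hochberg adjusted p = 0.80 over 6 ratios), which is the smallest p that 2 against 2 libraries can give. With each library left out in turn the difference lay between 1.33 and 1.98.

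Angpt4 to Angpt1 was also higher in both WT uteri, at 37.3 and 18.6 in WT and 9.17 and 7.32 in Qa-2- libraries. Its log2 ratio differed by 1.69 (exact permutation p = 0.33, adjusted p = 0.80). Both ratios share Angpt1 as their base, whose log2 fold change was -0.22. Angpt4 to Angpt2 was 4.20 and 3.30 in WT and 4.85 and 2.75 in Qa-2- libraries, so that the groups overlapped and the mean log2 difference was 0.029. Angpt2 to Tek (0.267 and 0.125 in WT, 0.102 and 0.149 in Qa-2- libraries) and Angpt4 to Tek (1.12 and 0.415 against 0.495 and 0.410) also overlapped between the groups. For both, WT replicate 1 was the highest library.

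**Figure D3:**
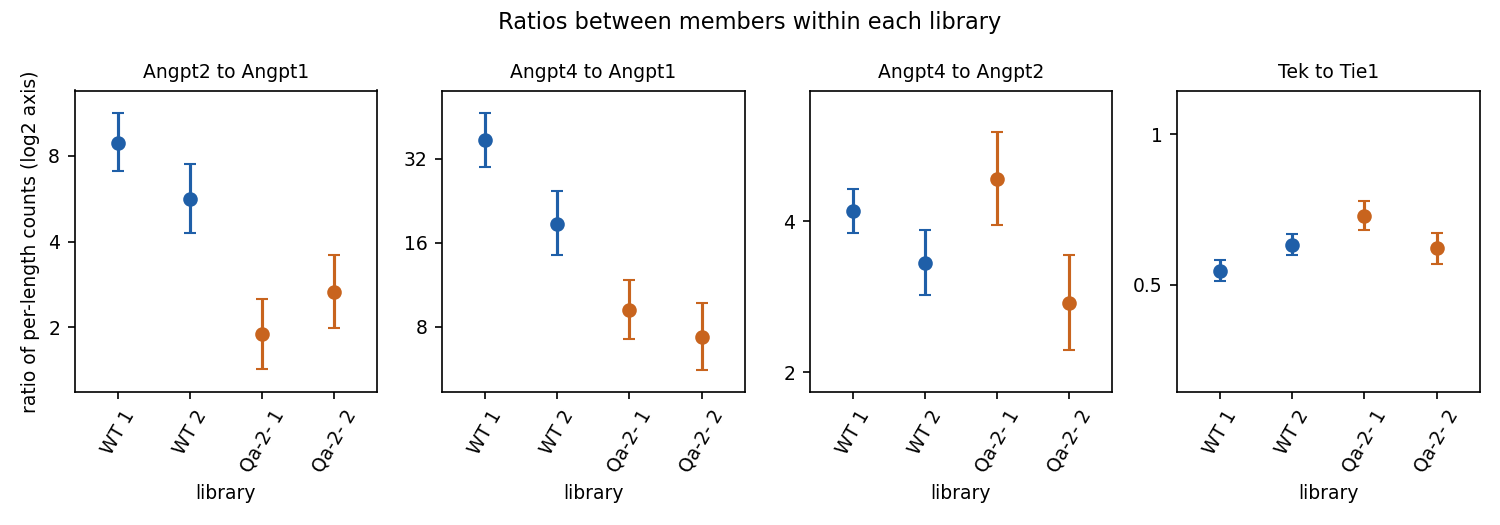
Ratios of per-length counts within each library (y axis, log2 scale) for 4 of the 6 pairs of members, by library (x axis; blue WT, orange Qa-2-). Points are libraries and error bars are exact 95% binomial intervals for counting error; both ratios to Angpt1 are higher in WT libraries without overlap, whereas Angpt4 to Angpt2 and Tek to Tie1 overlap.

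Most, but not all, of the blood endothelial markers had higher values in both WT libraries. Of 11 such genes, none of them named in the study's lists, 7 were higher in WT at an unadjusted p under 0.05 in the same edgeR fit and 0 were lower, with 0 at an adjusted p under 0.05, whereas DESeq2 called 3 of the 11 higher in WT at that threshold. Their median log2 fold change was 0.62, beside 0.012 for all genes tested. Both WT libraries were above both Qa-2- libraries for 9 of the 11. The largest was Icam2, an endothelial adhesion molecule, at 1.03 (759 and 825 counts against 375 and 330), and the smallest was Cd34, which also marks stromal cells, at -0.32. Summed over the list, the level was 1001 and 1304 CPM in WT and 1064 and 983.8 CPM in Qa-2- libraries, where Cd34 made up 29.2% to 50.2% of the counts. In whole tissue, fewer endothelial cells and less RNA per endothelial cell cannot be told apart.

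Set against this list, Tie1 had 122.0 and 90.8 counts per 1000 endothelial counts in WT and 60.4 and 61.8 in Qa-2- libraries. Tek had 62.4 and 52.3 against 39.8 and 35.0. Angpt2 had 13.0 and 5.14 against 3.18 and 4.09, and Angpt4 34.6 and 10.7 against 9.75 and 7.12. These 4 members were higher in both WT libraries on this scale too, for which the share over all genes was not computed. Cd34, higher in both Qa-2- libraries, made up 50.2% and 48.3% of the Qa-2- sums against 29.2% and 35.4% in WT. Without Cd34 in the sum, the groups would overlap for Angpt4. Angpt1 had 2.07 and 1.28 against 2.37 and 2.17, so that it was lower in both WT libraries (log2 fold change -0.44, unadjusted p = 0.369 by edgeR). Fitted with these sums in place of library sizes, 3 of the 4 kept an unadjusted p under 0.05 by edgeR, against 3.06% of all genes higher in WT, and Tek did not (log2 fold change 0.62, unadjusted p = 0.0631). The median of all genes was -0.23 on this scale. When the 11 genes were given equal weight through their geometric mean, a scale added after the data were seen, the log2 fold changes were 1.06 for Angpt4, 0.98 for Angpt2, 0.48 for Tie1, 0.29 for Tek and -0.77 for Angpt1 (unadjusted p = 0.107 by edgeR). On that scale 0 members had an unadjusted p under 0.05 by edgeR, against 1.59% of all genes higher in WT, and the median of all genes was -0.55. The part of endothelial content in the differences was not tested beyond these scales.

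**Figure D4:**
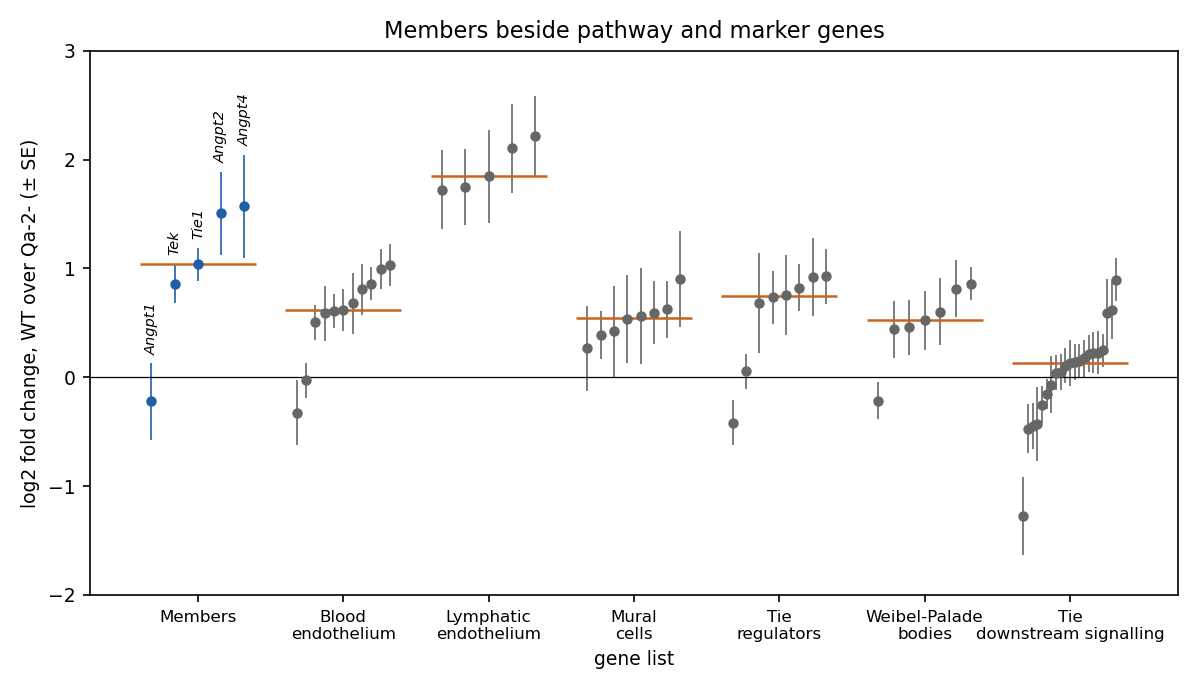
Log2 fold changes of WT over Qa-2- (y axis) of the members and of genes in marker and pathway lists (x axis). Points are genes with standard errors from edgeR and orange lines are list medians; Angpt2 and Angpt4 lie above all blood endothelial genes shown and Angpt1 lies below 0, while the lymphatic endothelial genes lie higher still.

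Lymphatic endothelial markers had larger log2 fold changes than any member. All 5 such genes were higher in both WT libraries and had an unadjusted p under 0.05 by edgeR, with 0 at an adjusted p under 0.05 and a median log2 fold change of 1.85. DESeq2 called all 5 at an adjusted p under 0.05. Their summed level was 1102 and 663.5 CPM in WT and 315.7 and 178.7 CPM in Qa-2- libraries, the order of libraries that Angpt4 also had. Values ran from 1.72 for Flt4, the VEGF-C receptor, to 2.21 for Reln, the gene of reelin, which lymphatic endothelium makes. Flt4 and Prox1 are again genes of the study's own lists. Angpt2 and both Tie receptors are known to act in lymphatic vessels too, and the part of lymphatic content in the members' values was not tested.

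Mural cell genes, from cells that are a usual source of Angpt1, had a median log2 fold change of 0.55. By edgeR 0 of the 8 had an unadjusted p under 0.05 and by DESeq2 0 had an adjusted p under 0.05, and they ran from 0.27 for Notch3, a receptor of vascular smooth muscle, to 0.90 for Mcam, an adhesion molecule. Smooth muscle genes had a median of 0.99, from 0.56 for Myh11 to 1.22 for Des, with 0 of 6 at an unadjusted p under 0.05 by edgeR, while DESeq2 called 2 of them, Tagln and Des, higher in WT at an adjusted p under 0.05. Epithelial genes went the other way, with a median of -0.83, from -1.18 for Foxa2, a factor of uterine glands, to -0.62 for Krt18, and 2 of 6 lower in WT at an unadjusted p under 0.05 by edgeR and 1 at an adjusted p under 0.05 by DESeq2. Stromal genes had a median of 0.037, from -0.59 for Pdgfra to 1.15 for Lum, a matrix proteoglycan, with 1 of 5 higher in WT at an unadjusted p under 0.05 by edgeR and 2, Dcn and Lum, at an adjusted p under 0.05 by DESeq2. Macrophage genes had a median of 0.35, from 0.20 for Csf1r to 0.76 for Cd68, the 1 gene of 5 that edgeR at an unadjusted and DESeq2 at an adjusted p under 0.05 called higher in WT. Of the erythroid genes the 2 that passed the filter, Hbb-bs and Hba-a2 of adult globin, were at 2.58 and 2.28, both called higher in WT by edgeR at an unadjusted and by DESeq2 at an adjusted p under 0.05, with a summed level of 255.6 and 427.3 CPM in WT and 71.2 and 53.1 CPM in Qa-2- libraries. Platelet genes, which matter because platelets carry Angpt1, ran from -0.75 for Ppbp to 0.60 for Pf4, and their summed CPM lay between 29.1 and 38.0 in all libraries, with 0 of 3 called by either tool at these thresholds. The trophoblast and yolk sac genes ran from -3.39 for Afp to 1.1 for Tpbpa, and the groups overlapped for all 3 that passed the filter, with 0 called by either tool. Over all genes tested, edgeR put 8.09% higher and 7.09% lower in WT at that unadjusted threshold. DESeq2 called 2.79% higher and 2.04% lower in WT at the adjusted one. The part of any of these lists in the members' values was not tested.

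Of 9 genes whose products act directly on angiopoietins or Tie receptors, 8 passed the filter. By edgeR 4 were higher and 0 lower in WT at an unadjusted p under 0.05, against 8.09% and 7.09% of all genes. At an adjusted p under 0.05 edgeR called 0 of these 8. DESeq2 called 2 of them, Svep1 and Ptprb, at an adjusted p under 0.05. The list's median log2 fold change was 0.74. Svep1, a matrix protein that binds Tie1, was at 0.93, with 10645 and 10110 counts in WT against 5995 and 3898. Ptprb, the endothelial phosphatase that removes phosphate from Tie2 and another gene of the study's lists, was at 0.82, with 6145 and 7847 counts against 3709 and 3476. The membrane protease Mmp14, which is known to cleave Tie receptors, was at 0.92 with 40421 and 20573 counts against 15485 and 13464, again highest in WT replicate 1. Itgb3, an integrin chain, was at 0.73. Integrin chains Itgb1 and Itga5 had log2 fold changes of 0.75 and 0.69 that missed an unadjusted p of 0.05, the sheddase Adam17 was at 0.056 and Itgav at -0.42. Lect2, a Tie1 ligand made by liver, fell under the filter with 8 and 4 counts in WT and 1 and 1 in Qa-2- libraries.

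Downstream of the receptors, the median over 21 adaptors, kinases and targets was 0.13. Nos3, the endothelial nitric oxide synthase, was the highest at 0.90 (1327 and 1426 counts against 763 and 579), and is also in the study's lists. Grb7, an adaptor that binds Tie2, was the lowest at -1.27 (1666 and 1173 counts against 2104 and 4058). Only these 2 of the 21 had an unadjusted p under 0.05 by edgeR, 1 in each direction. That is not above the 8.09% of all genes higher and 7.09% lower in WT. By edgeR 0 of the 21 had an adjusted p under 0.05, while DESeq2 called both Nos3 and Grb7. Foxo1, the factor that Tie2 signalling restrains and that drives Angpt2, was at -0.067, with 4378 and 6399 counts in WT against 5518 and 4771.

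Of 13 transcription factors that act on these genes, 4 were higher and 2 lower in WT at an unadjusted p under 0.05 by edgeR. Over all genes these shares were 8.09% and 7.09%. At an adjusted p under 0.05 edgeR called 0 of the 13. DESeq2 called 2 higher, Foxc2 and Ets1, and 1 lower, Ets2, at an adjusted p under 0.05. Foxc2, a factor of lymphatic and venous vessels, was the highest at 1.41 (340 and 235 counts against 110 and 85). Ets2 was the lowest at -0.96 (10427 and 6703 counts against 13183 and 16714). The list's median was 0.21. In the angiopoietin-like family, whose members resemble angiopoietins but are not ligands of Tie2, 4 of 7 genes passed the filter, with a median of 0.71. Angptl7 was the highest at 1.46 (12887 and 19755 counts against 5864 and 4982) and the only 1 of them at an unadjusted p under 0.05 by edgeR or an adjusted p under 0.05 by DESeq2, and Angptl6 was the lowest at -0.29.

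Genes of Weibel-Palade bodies, the endothelial granules that store Angpt2, had a median of 0.52 over 7 genes. Of the 7, 2 were higher in WT at an unadjusted p under 0.05 by edgeR, against 8.09% of all genes. DESeq2 called 1, Vwf, at an adjusted p under 0.05. Vwf, the von Willebrand factor of these granules, was the highest at 0.86 (4063 and 3500 counts against 1979 and 1786) and Rab3d the lowest at -0.22. Among 10 genes of sprouting endothelium the median was 0.54. Igfbp3 was the highest at 1.61 (11464 and 10394 counts against 3398 and 3097), while Nid1, a basement membrane protein, was the lowest at 0.18. Igfbp3 was also the 1 gene of the 10 at an unadjusted p under 0.05 by edgeR, near the 8.09% of all genes higher in WT. It was the 1 gene of the list that DESeq2 called at an adjusted p under 0.05. Esm1, an endothelial proteoglycan of sprouting vessels, had 145 and 172 counts in WT against 83 and 96, higher in both WT libraries but with an unadjusted p above 0.05.

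Genes whose pattern over the 4 libraries was most like that of a member were found as those with the smallest root mean square difference in centred log2 CPM. With 4 libraries such likeness is a description only. For Tek these were Arhgap29 at 0.021, Fam216a at 0.022 and Nos3 at 0.025, and within the lists Nos3, Eng, an endothelial TGF-beta co-receptor, at 0.054 and Ets1 at 0.067. For Tie1 they were Pkig at 0.033, Vsir at 0.033 and Emid1 at 0.043, and within the lists Icam2 at 0.080, Ets1 at 0.096 and Vwf at 0.097. Nos3, Eng, Icam2 and Vwf are endothelial genes, but of these only Nos3 was among the nearest over all genes. The lists hold many endothelial genes, so endothelial neighbours within them were likely from the start.

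For Angpt2 the nearest genes were Adm at 0.10, the gene of the vasodilator adrenomedullin and in the study's lists, Dpp7 at 0.13 and Bc1 at 0.13, and within the lists Foxc2 at 0.26, Angpt4 at 0.31 and Mmp14 at 0.32. Adm had 49.2 and 23.3 CPM in WT and 12.8 and 12.9 CPM in Qa-2- libraries. For Angpt4 they were Ndufa4l2 at 0.085, Cpe, a carboxypeptidase of hormone processing, at 0.097 and Nnmt at 0.10, and within the lists Lum at 0.26, Foxc2 at 0.31 and Angpt2 at 0.31. Ndufa4l2 had 34.0 and 14.2 CPM in WT and 10.4 and 7.99 CPM in Qa-2- libraries, nearly the levels of Angpt4 in each library. A difference under 0.2 was found for 0.104% of genes with Angpt4, 0.179% with Angpt2, 2.13% with Tie1 and 4.40% with Tek. With Angpt1 it was found for 19.3% of genes, the nearest being Cdc73 at 0.012, Gm14586 at 0.025 and Bach2 at 0.027, and within the lists Rab3d, Grb14 and Elf1.

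**Figure D5:**
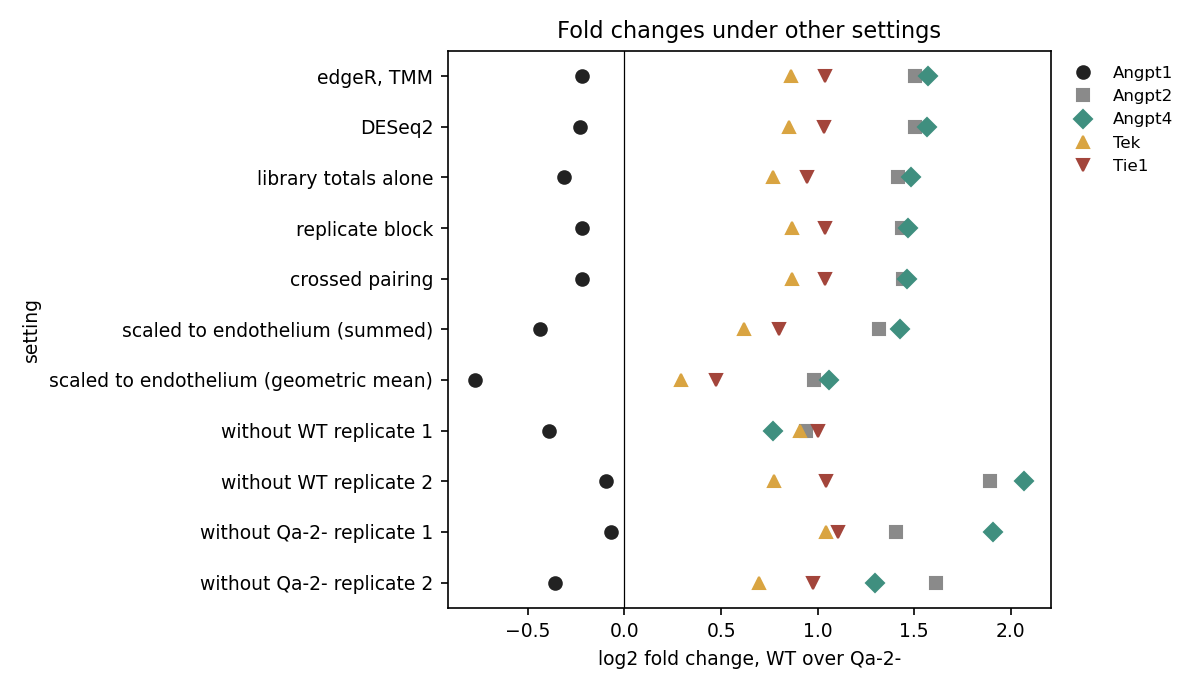
Log2 fold changes of WT over Qa-2- (x axis) of the members under other tests, library scales, blocks and with each library left out (y axis). Symbols are genes; Angpt1 stays below 0 and the other members above 0 in each setting shown, and Angpt4 moves most, from 0.77 without WT replicate 1 to 2.07 without WT replicate 2.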

How the data were processed

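RNA of whole uteri was sequenced in poly(A)-enriched, strand-specific libraries. The deposited values are counts of read pairs per gene, made by the authors with featureCounts 2.0.0 on GRCm38 exons (reverse strand, both ends mapped, multi-mapping pairs not counted), without normalization. The submitters' processing notes also name STAR 2.7.3a and GRCm38.p6. Of 55421 identifiers, 55154 were given symbols from GENCODE M21. The filter on low values (1 CPM or more in 2 or more samples) is worded as in the study's methods, which name no test for the RNA sequencing data. It left 14492 genes here, fewer than the study states, and the cause of the gap was not found. Counts were TMM-normalized and compared with edgeR 4.0.16 (quasi-likelihood) in R 4.3.3, and p-values were adjusted after Benjamini-Hochberg across the 14492 genes. The standard error is the log2 fold change divided by the root of F. DESeq2 1.42.0 was an alternative. RPKM used the exon lengths in the files. The floor of 3 counts is 0.0731 to 0.0901 CPM.

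Groups and replicate numbers follow the sample titles. Libraries of a group differed by more than sampling noise (240.8 and 150.9 chi-square per gene in WT and Qa-2-). The members, lists and tests were chosen with earlier results of these data known, and the motifs GGAA and TATAAA after the windows were seen. Named were all members, the extremes of each list, all Tie regulators and the 3 nearest profiles. Genes that overlap a member were named too, as were H2-Q6 and H2-Q7 to check the labels. Prox1 was named as a gene of the study's lists. Others (Foxo1, Esm1, Tagln, Dcn, Psg21, Prl3b1) were chosen after their values were seen. In simulated counts of 14492 genes for this comparison, edgeR called 12 of 100 genes changed by 1 and 84 of 100 changed by 2 on the log2 scale, and DESeq2 called 30 and 87. Among the unchanged genes, edgeR also called 15 and DESeq2 36. Motifs were searched in RefSeq promoter windows of GRCm38.p6, which held Tek, Tie1 and Angpt4. The Tie1 window is not printed because it overlaps an annotated exon.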

Additional observations from a re-analysis of the deposited data

How the results depend on the processing

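Directions of all 5 members and of the ratio of Angpt2 to Angpt1 were the same under every alternative run. DESeq2's size factors and Wald test brought 4 members under an adjusted p of 0.05, at log2 fold changes of 1.5 for Angpt2, 1.56 for Angpt4, 0.85 for Tek and 1.03 for Tie1. No edgeR setting did so, and its lowest adjusted p for a member was 0.0642. Equal weighting of the endothelial genes, added after the data were seen, left 0 members at an unadjusted p under 0.05 and put Angpt1 at -0.77, against -0.44 on the summed endothelial scale. For these changes the cause was not tested. Each library was also left out in turn, where the lone library is assumed to vary like the other group. The log2 fold changes then were -0.39 to -0.070 for Angpt1, 0.94 to 1.89 for Angpt2, 0.77 to 2.07 for Angpt4, 0.70 to 1.04 for Tek and 0.98 to 1.1 for Tie1. Same-numbered libraries had deviations with a correlation of -0.37, and the numbers belong to different mice. With the replicate block the values were -0.22, 1.44, 1.47, 0.87 and 1.04 in that order and the ratio difference was 1.66, and with the crossed pairing, added later, 0 members passed an adjusted p of 0.05. Over all genes, edgeR called 0 at an adjusted p under 0.05, against 700 with DESeq2, 61 without a filter, 2 with the replicate block, 25 and 4 on the summed and equal-weight endothelial scales, 4 without WT replicate 1 and 93 without WT replicate 2. Counts of 66 to 88 pairs limit Angpt1. The other settings (upper-quartile factors, library totals, a robust fit, no filter, a minimum of 10 counts per sample, the legacy option off, 10 counts added to the ratio) moved no call of a member.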
